A study of Mus musculus with 15 samples.

Results

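Atf4 and 7 further genes of the integrated stress response, Asns, Trib3, Ddit3, Chac1, Sesn2, Ppp1r15a and Cebpb, were followed in mouse spleen B and T cells before and after activation. They were taken as all probe sets, the groups of probes by which the array reads a transcript, that the platform annotation gives to exactly 1 of these symbols. That rule found 15 probe sets of the 34958 with a single symbol, and so 8 genes of 18194. The data are 15 Affymetrix arrays in 5 groups of 3. B cells were either naive and resting (B 0 h) or treated for 4 h with 25 ug/ml lipopolysaccharide (LPS), a bacterial cell wall component that activates B cells (B LPS 4 h). T cells were resting (T 0 h) or treated with 7.5 ug/ml concanavalin A (ConA), a lectin that activates T cells, for 4 h (T ConA 4 h) or 14 h (T ConA 14 h). All cells came from the spleen of B6x129 mice. All groups share the culture medium, RPMI with Hepes, L-glutamine, pyruvate and beta-mercaptoethanol, a reducing agent whose concentration the labels write as 50 mM. No group was cultured without stimulus, so time in culture and stimulus cannot be told apart. The labels do not say whether the 3 arrays of a group came from separate animals or cultures, and the p-values therefore measure the spread between these arrays.

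In the integrated stress response, kinases that sense missing amino acids, unfolded protein, viral RNA or heme deficiency phosphorylate the translation initiation factor eIF2. General protein synthesis then drops while Atf4 mRNA, which carries upstream open reading frames, is translated more. The ATF4 protein, a transcription factor, raises genes for amino acid supply and stress adaptation. Ddit3 and Cebpb encode transcription factors that can pair with ATF4. Ppp1r15a encodes GADD34, which directs the dephosphorylation of eIF2, and Trib3 encodes a pseudokinase that restrains ATF4 and Ddit3. Asns encodes asparagine synthetase, Chac1 an enzyme that degrades glutathione, and Sesn2 a leucine sensor that restrains the growth kinase complex mTORC1. The arrays read mRNA only, so neither eIF2 phosphorylation nor ATF4 protein was measured.

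ATF4 binds, as a dimer with a C/EBP protein, sites known as C/EBP-ATF response elements, and the stretches below are shown because they hold such letters in the promoters of genes whose levels are given next. Each of the 8 genes had 1 promoter in the RefSeq table used here (build GRCm38.p6), 300 bases from 250 before to 50 after the start of transcription. The core TGATGNAA was searched on both strands and lay in the promoters of Asns, Chac1 and Trib3. It lay in 3.97% of all 32851 promoters of this length. Capitals mark the match, and the sequences run 5′ to 3′ on the gene's own strand, so TTGCATCA and TTACATCA are the core read on the other strand.
Asns: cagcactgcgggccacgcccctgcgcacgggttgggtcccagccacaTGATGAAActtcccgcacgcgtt
Chac1: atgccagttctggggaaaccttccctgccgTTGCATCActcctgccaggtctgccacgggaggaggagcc
Trib3: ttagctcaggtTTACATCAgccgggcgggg
The Asns stretch is chr6:7693210-7693279 on the minus strand, and its match lies 23 to 16 bases upstream of the start. The Chac1 stretch is chr2:119351019-119351088 on the plus strand, with the match 193 to 186 bases upstream. The Trib3 stretch is chr2:152344028-152344057 on the minus strand, and its match covers bases 15 to 22 after the start, inside the transcribed part. A match of letters is a description and not evidence of binding.

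The promoter of Ppp1r15a held the full cyclic AMP response element, TGACGTCA, a site for the wider family of ATF and CREB factors, which lay in 1.79% of all promoters. It is shown as the only match among the 8 genes to that motif.
Ppp1r15a: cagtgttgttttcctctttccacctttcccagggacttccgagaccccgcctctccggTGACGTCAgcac
That stretch is chr7:45526269-45526338 on the minus strand, and the element lies 12 to 5 bases upstream of the start. The E-box CACGTG, found in 7.15% of promoters, and the C/EBP palindrome TTGCGCAA, found in 0.183%, lay in 0 of the 8. The promoters of Atf4, Ddit3, Sesn2 and Cebpb held none of the 4 motifs in this window.

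All 8 genes rose in B cells within 4 h of LPS, each at least 2-fold, and 7 of them rose more there than in T cells after 4 h of ConA. The 8 genes were chosen with earlier results of these data known, so their counts describe them and do not test the set. Values are log2 signals, so a difference of 1 is a 2-fold change. They start at a floor of 2.24, and 39.2% of all values lie on it. A gene with several probe sets was read by the one of highest mean, genes with no group mean of at least 5 were left out, and 9045 genes were tested together in limma with Benjamini-Hochberg adjustment, a gene being called at an adjusted p under 0.05. All 8 genes passed the filter, but Trib3, Chac1 and Sesn2 passed it only through B LPS 4 h, so their difference from the other groups is in part a condition of their being tested. In the LPS comparison 8 of 8 were called higher, with a median change of 2.22 and a range of 1.08 to 5.22, against 37.6% of all tested genes called higher, 42.3% called lower and a median of -0.05. On all 3 B LPS 4 h arrays, 7 of the 8 genes (all but Cebpb) lay above all 12 other arrays, which held for 15.9% of tested genes.

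**Figure D1:**
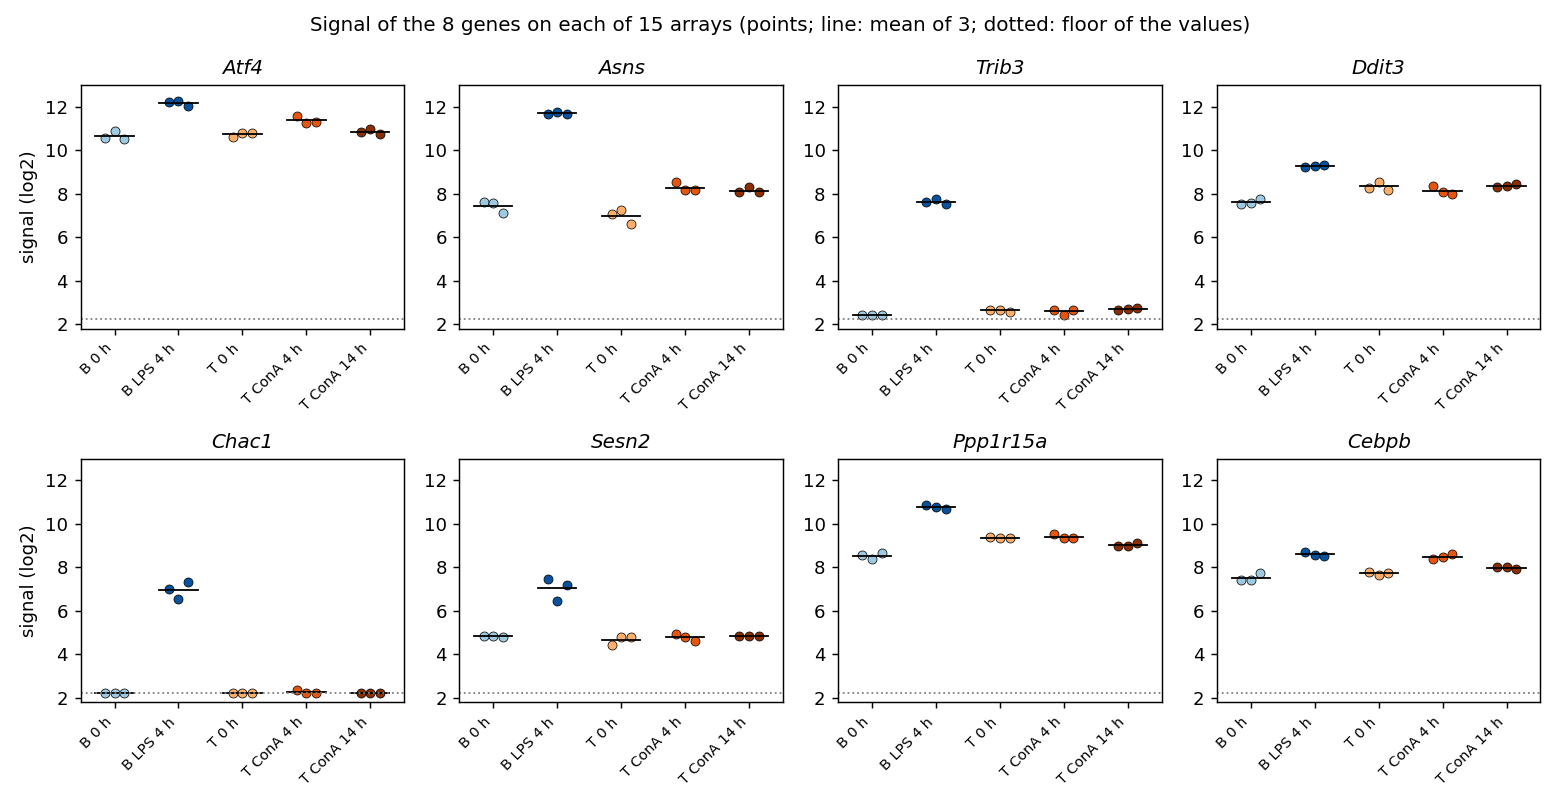
Log2 signal of each gene on every array, by its probe set of highest mean, with 3 points per group, a line at their mean and a dotted line at the floor of 2.24. Trib3 and Chac1 lie at or close to the floor in every group but B LPS 4 h, while Atf4 lies above 10 on all 15 arrays.

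Atf4 itself was abundant in every group. Its signal was 10.56, 10.88 and 10.51 on the 3 arrays of resting B cells and 12.23, 12.25 and 12.04 after LPS. Resting T cells gave 10.63, 10.81 and 10.77, T cells at 4 h of ConA 11.55, 11.25 and 11.32, and T cells at 14 h 10.83, 10.95 and 10.74. The LPS arrays stood highest without overlap, the 4 h ConA arrays came next, and the remaining 9 arrays overlapped. The rise with LPS was 1.52 ± 0.11 (SE, n = 3 per group; limma adjusted p = 1.39e-08), or 2.87-fold. At 4 h of ConA the rise was 0.64 ± 0.11 (limma adjusted p = 0.00018), less than in B cells by 0.88 ± 0.16 (limma adjusted p = 0.000223).

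Ddit3 encodes CHOP, a transcription factor linked to cell death under lasting stress. Its signal was 7.55, 7.58 and 7.77 in resting B cells and 9.22, 9.29 and 9.34 after LPS. In T cells it was 8.28, 8.56 and 8.17 at rest, 8.35, 8.08 and 7.98 at 4 h of ConA and 8.30, 8.34 and 8.45 at 14 h. Resting B cells were thus the lowest group and LPS-treated B cells the highest, with the 9 T cell arrays overlapping between them. The rise with LPS was 1.65 ± 0.11, or 3.14-fold (limma adjusted p = 6.14e-09). The change at 4 h of ConA, -0.20 ± 0.11, was not called (limma adjusted p = 0.13). Without T ConA 4 h replicate 1 it was -0.31 and called (limma adjusted p = 0.0245), and the difference from 4 h to 14 h was then 0.33 and called (limma adjusted p = 0.0238) in place of 0.23 (limma adjusted p = 0.113). The fall at 4 h was also called with the mean of both probe sets (-0.45, limma adjusted p = 0.00331) and with the spike-in as a covariate (-0.20, limma adjusted p = 0.0373). On the dimmer probe set alone it was -0.69, called among probe sets past the level filter (limma adjusted p = 0.0275) and not across all of them (limma adjusted p = 0.0857).

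Cebpb, which encodes a C/EBP factor that also acts in inflammatory gene expression, was the member whose rise differed least between the cell types. B cells gave 7.40, 7.41 and 7.76 at rest and 8.73, 8.57 and 8.52 after LPS. T cells gave 7.81, 7.66 and 7.74 at rest, 8.40, 8.47 and 8.62 at 4 h and 7.998, 7.998 and 7.92 at 14 h. The LPS arrays and the 4 h ConA arrays overlapped, and both lay above all others. It rose by 1.08 ± 0.10 with LPS (2.11-fold; limma adjusted p = 1.62e-07) and by 0.76 ± 0.10 with ConA at 4 h (limma adjusted p = 1.21e-05). The difference between these responses, 0.32 ± 0.14, was not called (limma adjusted p = 0.0599), but was called without B 0 h replicate 3 (0.43, limma adjusted p = 0.00531) or without T ConA 4 h replicate 3 (0.38, limma adjusted p = 0.035).

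Both genes for feedback on the pathway rose in LPS-treated B cells. Ppp1r15a, the phosphatase subunit, gave 8.55, 8.40 and 8.68 in resting B cells and 10.86, 10.79 and 10.70 after LPS, a rise of 2.24 ± 0.09 or 4.72-fold (limma adjusted p = 1.3e-11). In T cells it was 9.40, 9.37 and 9.33 at rest, 9.55, 9.34 and 9.34 at 4 h and 8.97, 8.99 and 9.13 at 14 h. The resting T cell and 4 h arrays overlapped, and the 14 h arrays lay below both: Ppp1r15a fell by 0.33 ± 0.09 from 0 h to 14 h (limma adjusted p = 0.00361).

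Trib3, the pseudokinase, was near the floor everywhere except in LPS-treated B cells. It read 2.41 on each of the 3 resting B cell arrays and 7.62, 7.74 and 7.53 after LPS. T cell arrays lay between 2.43 and 2.75 at all times, so there was no overlap between B LPS 4 h and any other group. The rise was 5.22 ± 0.08 (limma adjusted p = 9.77e-16), or 37.3-fold on this probe set. The resting B cell value was identical on the 3 arrays and was the lowest of all 15. It lies close to the floor but not on it, which limits how exactly the fold is known. An exact repeat also understates the spread between arrays. The dimmer Trib3 probe set, given below, showed a smaller rise. In T cells the change was -0.05 ± 0.08 at 4 h (limma adjusted p = 0.625) and 0.07 ± 0.08 at 14 h (limma adjusted p = 0.44), both between values near the floor.

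The metabolic targets rose as well. Asns, the asparagine synthetase gene, gave 7.60, 7.59 and 7.10 in resting B cells and 11.64, 11.74 and 11.67 after LPS. T cells gave 7.05, 7.26 and 6.63 at rest, 8.52, 8.17 and 8.16 at 4 h and 8.07, 8.29 and 8.07 at 14 h. The LPS arrays stood far above the rest, the 4 h and 14 h ConA arrays overlapped, and all of these lay above both resting groups. The rise with LPS was 4.26 ± 0.16, or 19.2-fold (limma adjusted p = 1.29e-11), the 64th largest of all tested genes. Asns also showed the largest ConA responses of the 8 genes, 1.31 ± 0.16 at 4 h (limma adjusted p = 9.03e-06) and 1.17 ± 0.16 at 14 h (limma adjusted p = 2.39e-05).

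Chac1, whose product breaks down glutathione, sat on the floor of 2.24 in resting B cells, resting T cells and T cells at 14 h, on all 9 arrays. At 4 h of ConA it read 2.38, 2.24 and 2.24. LPS-treated B cells alone had signal, 7.01, 6.55 and 7.32. The rise of 4.73 ± 0.13 (limma adjusted p = 6.03e-13) is at least 26.5-fold, a bound set by the floor. Values on the floor do not vary, whereas the LPS arrays had an SD of 0.39. The SE and adjusted p pool all 5 groups and so understate the spread of the LPS arrays. At 4 h of ConA the difference of 0.05 ± 0.13 was not called (limma adjusted p = 0.777).

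Sesn2, the leucine sensor, read 4.85, 4.85 and 4.81 in resting B cells and 7.47, 6.44 and 7.21 after LPS. In T cells it read 4.42, 4.81 and 4.82 at rest, 4.93, 4.81 and 4.61 at 4 h and 4.85 on all 3 arrays at 14 h. The value 4.85 recurred exactly on 5 arrays, and only the LPS group stood apart. Exact repeats within a group occurred in 23.3% of tested genes, and such repeats understate the spread between arrays. The rise with LPS was 2.21 ± 0.20, or 4.62-fold on the probe set of highest mean (limma adjusted p = 1.42e-07). The dimmer Sesn2 probe set rose by 3.43, or 10.8-fold, from values near the floor. Changes of 0.10 ± 0.20 and 0.17 ± 0.20 at 4 h and 14 h of ConA were not called (limma adjusted p = 0.682 and 0.483).

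In T cells the 8 genes did not move as a block. At 4 h of ConA 3 of 8 were called higher (Atf4, Asns and Cebpb) and 0 lower, with a median change of 0.07. Of all tested genes 33.4% were called higher, a share near that of the 8, and 32.5% lower. Trib3 and Chac1, at or near the floor in T cells, could hardly show a fall. Only Asns of the 8 changed at least 2-fold. At 14 h Asns and Cebpb were called higher and Ppp1r15a lower than at rest, against 36.6% of tested genes higher and 31.9% lower. The Cebpb call at 14 h, 0.24 ± 0.10 (limma adjusted p = 0.0464), was lost under 16 of 28 alternatives, 7 of them the removal of a single array. Those 7 were T 0 h replicate 2 or 3, T ConA 14 h replicate 1, 2 or 3, B LPS 4 h replicate 2 and T ConA 4 h replicate 2, without which the change was 0.20 to 0.26 and its adjusted p 0.0543 to 0.139.

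Between 4 h and 14 h of ConA, 3 genes were called lower and 0 higher, where 21.5% and 27.4% of tested genes were. Atf4 fell by 0.54 ± 0.11 (limma adjusted p = 0.00136), Cebpb by 0.52 ± 0.10 (limma adjusted p = 0.000662) and Ppp1r15a by 0.38 ± 0.09 (limma adjusted p = 0.00251). The Atf4 fall was not found on its other bright probe set (-0.05, not called). The Cebpb call was lost with the mean of its probe sets (-0.39, limma adjusted p = 0.0885) and on the dimmer one (-0.25). Asns, at -0.14 ± 0.16 (limma adjusted p = 0.525), was not called. The comparisons of 4 h and 14 h with rest share the resting T cell arrays.

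**Figure D2:**
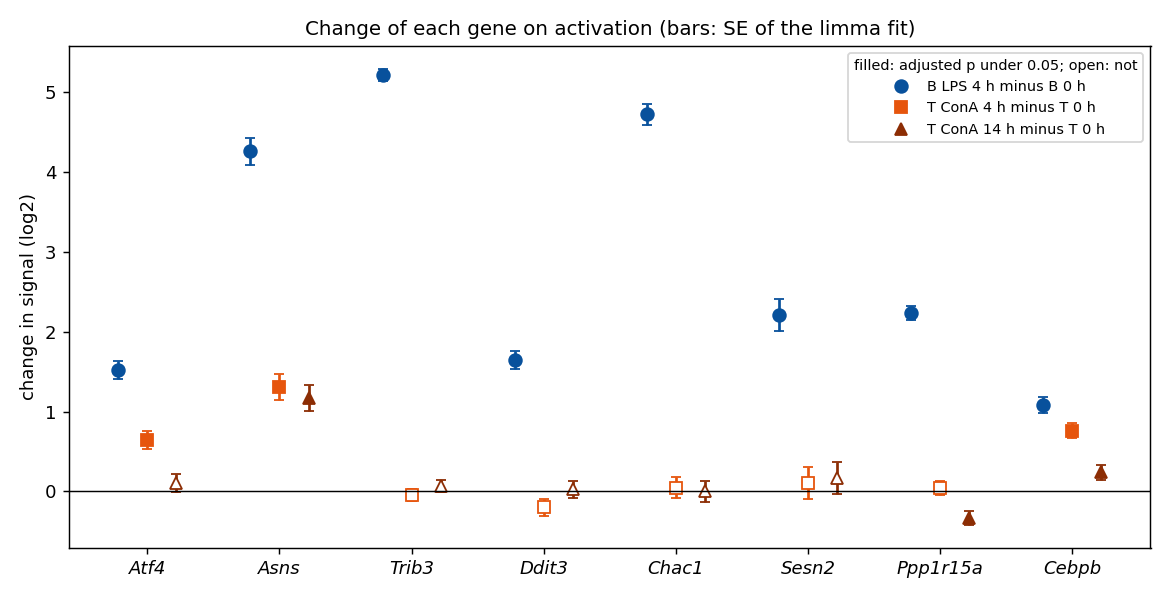
Change in log2 signal of each gene with LPS at 4 h in B cells and with ConA at 4 h and 14 h in T cells, with standard errors of the limma fit, filled where called. All 8 B cell changes are filled and above 1, whereas Asns is the only gene above 1 in T cells.

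The difference between the B and T cell responses at 4 h was itself tested. The B cell response was the larger in 7 of 8 genes and the smaller in 0, with a median difference of 2.15. Of all tested genes 31.3% had a larger and 34.8% a smaller B cell response. Trib3, Chac1 and Sesn2 were tested only through B LPS 4 h, so their larger B cell response is in part a condition of testing. Both the count and the median include them. The difference was 5.27 ± 0.11 for Trib3 (limma adjusted p = 7.94e-14) and 4.68 ± 0.19 for Chac1 (limma adjusted p = 8.42e-11), each resting on 3 groups of values at or near the floor. For Asns it was 2.95 ± 0.23 (limma adjusted p = 8.22e-08) and for Ppp1r15a 2.19 ± 0.12 (limma adjusted p = 2.25e-09). Sesn2 differed by 2.11 ± 0.28 (limma adjusted p = 1.71e-05) and Ddit3 by 1.85 ± 0.16 (limma adjusted p = 1.97e-07). LPS and ConA are different stimuli acting on different receptors, so cell type and stimulus cannot be told apart in this comparison.

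Before activation the differences between the cell types were below 2-fold for all 8 genes on the probe set of highest mean. Resting B cells were called lower than resting T cells in 3 of the 8 genes and higher in 1, where 51.1% of tested genes were lower and 25.5% higher, with a median over all genes of -0.27. Ppp1r15a was lower in B cells by 0.82 ± 0.09 (limma adjusted p = 1.01e-06) and Ddit3 by 0.70 ± 0.11 (limma adjusted p = 5.93e-05), with no overlap of arrays. The Ddit3 call was lost with the mean of its probe sets (-0.21, limma adjusted p = 0.109), and on the dimmer one the sign was opposite (0.29) and not called. Trib3 differed by -0.23 ± 0.08 (limma adjusted p = 0.0131) between values near the floor, which have no order. Asns was higher in B cells by 0.45 ± 0.16 (limma adjusted p = 0.0233), but the arrays overlapped and the call was lost without B 0 h replicate 1 (0.36), without B 0 h replicate 2 (0.37) or without T 0 h replicate 3 (0.27). Atf4 did not differ beyond its spread (-0.08 ± 0.11, limma adjusted p = 0.503). For Cebpb the difference of -0.21 ± 0.10 (limma adjusted p = 0.0684) was called only on leaving out B 0 h replicate 3 (-0.33, limma adjusted p = 0.00418) or under another scaling of the arrays or the spike-in correction.

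Arranged by level, B LPS 4 h came first for all 8 genes, for Cebpb without separation from T ConA 4 h. For Atf4 the order below it was T ConA 4 h and then T ConA 14 h, T 0 h and B 0 h, whose arrays overlapped. For Asns, T ConA 4 h and T ConA 14 h overlapped and stood above B 0 h and T 0 h, which overlapped too. For Ddit3 the 3 T cell groups overlapped above B 0 h. For Ppp1r15a, T ConA 4 h and T 0 h overlapped above T ConA 14 h, and B 0 h was lowest. For Cebpb the order ended in T ConA 14 h, T 0 h and B 0 h, of which the last 2 overlapped. For Trib3, Chac1 and Sesn2 the 4 groups below B LPS 4 h had values near the floor or overlapping.

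The probe sets of a gene did not always give the same picture. Of the 8 genes, 6 had several probe sets, and Atf4, Asns and Trib3 were read by a probe set of a type (name ending in _x_at) whose probes may also match other transcripts. In a fit across all 34958 probe sets, the other bright Atf4 probe set, 1448135_at, showed the LPS rise again, 1.62 ± 0.05 (limma adjusted p = 1.96e-10). It read 10.29, 10.35 and 10.30 in resting T cells, 10.64, 10.73 and 10.71 at 4 h and 10.60, 10.66 and 10.68 at 14 h. On it the ConA arrays of both times lay above rest and overlapped each other. It thus put Atf4 0.33 ± 0.05 above rest at 14 h (limma adjusted p = 0.00016), where the brighter probe set gave 0.10, and found no fall from 4 h to 14 h (-0.05 ± 0.05, limma adjusted p = 0.733). A remaining Atf4 probe set, 1439258_at, stayed between 2.24 and 3.20 on all arrays.

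**Figure D3:**
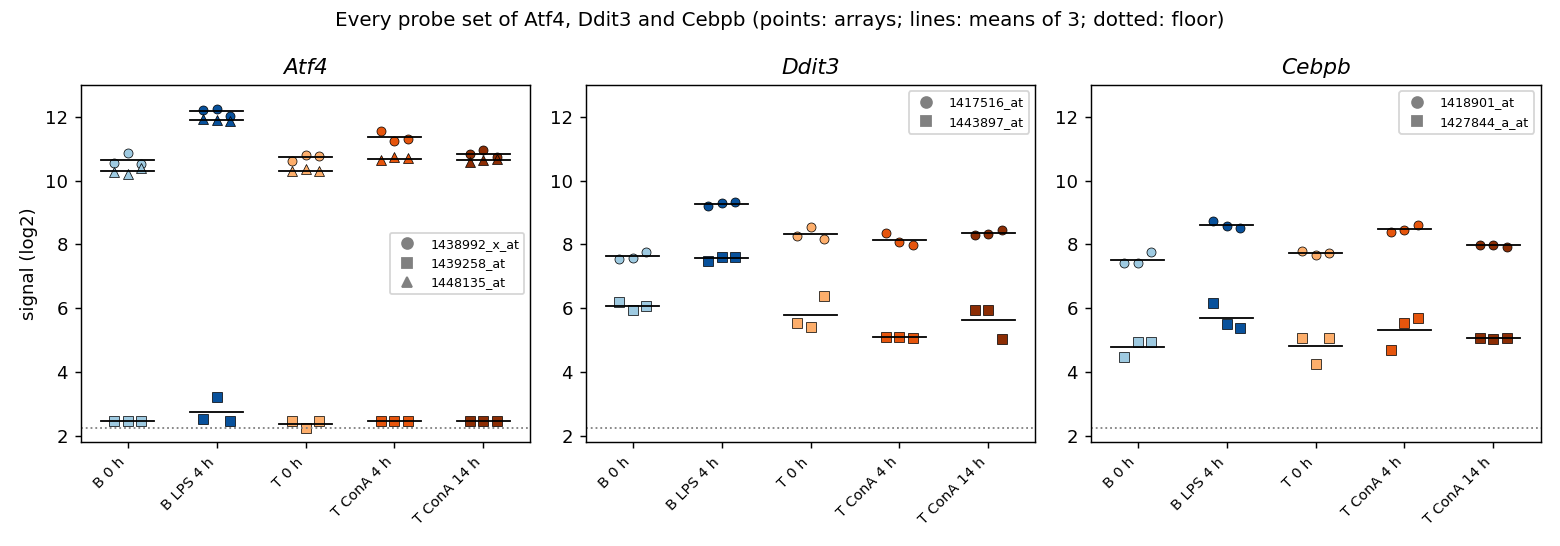
Log2 signal on every array for each probe set of Atf4, Ddit3 and Cebpb, with lines at the means of 3 and a dotted line at the floor. The 2 bright Atf4 probe sets part at T ConA 4 h, and on the dimmer Ddit3 probe set the arrays of resting B and T cells overlap.

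The dimmer Ddit3 probe set, 1443897_at, read 6.18, 5.94 and 6.08 in resting B cells and 5.55, 5.41 and 6.38 in resting T cells. It therefore did not show resting B cells lower: the difference was 0.29 ± 0.27 with the opposite sign (limma adjusted p = 0.556 across all probe sets). It did show the LPS rise, to 7.49, 7.59 and 7.61, a change of 1.50 ± 0.27 (limma adjusted p = 0.000748). The dimmer Cebpb probe set, 1427844_a_at, rose with LPS by 0.90 ± 0.32 (limma adjusted p = 0.0457), and its ConA change of 0.50 ± 0.32 was not called (limma adjusted p = 0.352). For Asns the probe set 1451095_at gave close values, 4.19 ± 0.18 with LPS and 1.60 ± 0.18 with ConA at 4 h, and placed resting B cells above resting T cells by 1.05 ± 0.18 without overlap (limma adjusted p = 0.000621). The dimmer Trib3 and Sesn2 probe sets were near the floor outside LPS-treated B cells and rose there by 3.94 and 3.43.

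For each gene the 3 genes nearest in profile were found by the root mean square difference of the 5 group means, each gene centred on its own mean, among 8756 genes. This is a description over 5 groups and carries no test. The nearest were Abcc1 (0.09), Usp10 (0.09) and Gclc (0.10) for Atf4. For Asns they were Cars (0.18), a tRNA synthetase gene, Slc1a4 (0.21), a neutral amino acid transporter gene, and Slc2a6 (0.25). Trib3 had Alpl (0.12), Gng4 (0.15) and Zbtb46 (0.21), and Chac1 had Gng4 (0.06), Zbtb46 (0.06) and Mx2 (0.08). Both profiles consist of 1 high group and 4 low ones, and Trib3 and Chac1 were also the closest members to each other (0.17). The nearest for Ddit3 were Trub1 (0.08), Zfp213 (0.10) and Ksr1 (0.13), and for Ppp1r15a Ddx11 (0.11), Id1 (0.17) and Yae1d1 (0.18). Sesn2 had Lmnb1 (0.15), Sbf2 (0.15) and Plxna1 (0.16), and Cebpb had Farsa (0.07), Ing5 (0.07) and Fam98a (0.07).

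The wider pathway was read from gene lists in order of their place in it. These lists too were chosen with earlier results of these data known, so their counts are a description and not a test. Of 9 genes for eIF2 kinases and their regulators, 3 were called higher and 3 lower with LPS, a median of -0.22, near the 37.6% and 42.3% of all tested genes. The kinases went different ways. Eif2ak2, the RNA-sensing and interferon-inducible kinase PKR, rose from 8.07 ± 0.25 to 10.6 ± 0.09 (SD, n = 3), by 2.49 ± 0.18 (SE). Eif2ak3, the endoplasmic reticulum kinase PERK, went from 10.3 ± 0.06 to 8.34 ± 0.05, so that it fell by 1.91 ± 0.07 (SE), and Eif2ak4, the amino acid sensor GCN2, fell by 0.53 ± 0.12. Gcn1, which activates GCN2, rose by 1.27 ± 0.10, and Impact, which inhibits it, fell by 0.71 ± 0.09. Eif2ak1, the heme-regulated kinase, was at 0.09 ± 0.17 with LPS (not called). With ConA at 4 h 2 of the 9 were higher, Eif2ak1 (0.84 ± 0.17) and Gcn1 (0.88 ± 0.10), and 1 lower, Dnajc3 (-1.15 ± 0.10), a PERK inhibitor. Of all tested genes 33.4% were higher and 32.5% lower in that comparison.

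The substrate side rose in both cell types. Of 7 measured subunits of eIF2 and of eIF2B, the exchange factor that phosphorylated eIF2 blocks, 7 were called higher with LPS (median 1.40). With ConA 5 were higher at 4 h (median 0.57) and 7 at 14 h (median 0.83), and none was lower in these comparisons. Of all tested genes 37.6%, 33.4% and 36.6% were called higher in the same order, and 42.3%, 32.5% and 31.9% lower. Eif2b3 had the largest rise of the list with LPS, 3.21 ± 0.11, and 1.42 ± 0.11 and 1.61 ± 0.11 at 4 h and 14 h of ConA. Eif2s2, the beta subunit of eIF2, rose by 1.92 ± 0.06 with LPS and by 0.57 ± 0.06 at 4 h of ConA.

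Genes for amino acid supply, the group to which Asns belongs, mostly rose in B cells. Of 10 amino acid and one-carbon enzymes on the array 8 were tested, Gpt2 only through B LPS 4 h, while Cth and Cbs stayed near the floor. With LPS 7 were called higher and none lower (median 3.05), beside 37.6% and 42.3% of all tested genes. Mthfd2, the mitochondrial folate enzyme, was at 4.10 ± 0.14 and Psat1, of serine synthesis, at 3.64 ± 0.11. With ConA at 4 h 3 were higher and 3 lower (median 0.16), near the 33.4% and 32.5% of all tested genes. At 14 h 4 were higher and 1 lower (median 0.35), beside 36.6% and 31.9%. At 4 h Psat1 rose by 1.74 ± 0.11, Shmt2 by 1.64 ± 0.11 and Mthfd2 by 0.75 ± 0.14. Pck2, mitochondrial phosphoenolpyruvate carboxykinase, went in opposite directions, higher by 0.93 ± 0.16 with LPS and lower by 2.20 ± 0.16 with ConA at 4 h.

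Among amino acid transporters 9 of 10 were tested, Slc7a3 and Slc1a4 only through B LPS 4 h, and Slc7a11, the cystine transporter, stayed near the floor in all groups. With LPS 8 were called higher and 1, Slc43a1, lower (median 1.27), beside 37.6% and 42.3% of all tested genes. With ConA at 4 h 6 were higher and none lower (median 0.85), beside 33.4% and 32.5%. Slc7a5, the large neutral amino acid transporter, rose from 6.76 ± 0.28 to 11.1 ± 0.04 (SD, n = 3) in B cells, by 4.31 ± 0.15 (SE), and by 2.56 ± 0.15 (SE) at 4 h of ConA. Slc7a3, a cationic amino acid transporter, was near the floor in all groups but B LPS 4 h, like Chac1 and Trib3, and rose there by 3.93 ± 0.07.

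All 13 genes for tRNA synthetases and the tRNA exporter Xpot were called higher with LPS (median 2.57), beside 37.6% of all tested genes. With ConA at 4 h 12 were higher and 1, Sars, lower (median 0.89), beside 33.4% and 32.5%. At 14 h 13 were higher (median 0.78), beside 36.6%. The B cell response was the larger in all 13, beside 31.3% of all tested genes. Cars had the largest LPS rise, 3.89 ± 0.17, and Yars, at 3.16 ± 0.07 with LPS, rose by only 0.19 ± 0.07 at 4 h of ConA. The core TGATGNAA lay in the promoters of 5 of the 9 list members that have one in the RefSeq table, Aars (at 2 places), Gars, Iars, Tars and Yars. The 4 genes with a single match are printed in 30 bases each for comparison with Asns, Chac1 and Trib3 above, and TTTCATCA is again the core on the other strand.
Gars: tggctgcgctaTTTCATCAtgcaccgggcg
Iars: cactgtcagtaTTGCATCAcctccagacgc
Tars: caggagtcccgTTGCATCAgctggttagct
Yars: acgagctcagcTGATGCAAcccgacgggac
They lie at chr6:55037960-55037989 (plus strand), chr13:49682126-49682155 (plus), chr15:11399655-11399684 (minus) and chr4:129189895-129189924 (plus) of GRCm38.p6. The matches of Gars and Tars lie upstream of the start, at 30 to 23 and 15 to 8 bases, and those of Iars and Yars after it, at bases 8 to 15 and 4 to 11. The motif was also in 5 of 12 promoters of other stress targets (Atf3, Nupr1, Fgf21, Vldlr and Herpud1), 2 of 10 of the enzymes (Pycr1 and Pck2) and 2 of 7 of the transporters (Slc7a11 and Slc1a4). It was in 1 of 7 promoters of eIF2 and eIF2B subunits, 0 of 7 of the kinases and regulators, 0 of 7 of the family relatives and 0 of 10 of the XBP1 and ATF6 genes. Nupr1, Fgf21 and Vldlr hold the letters and stayed near the floor in every group.

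**Figure D4:**
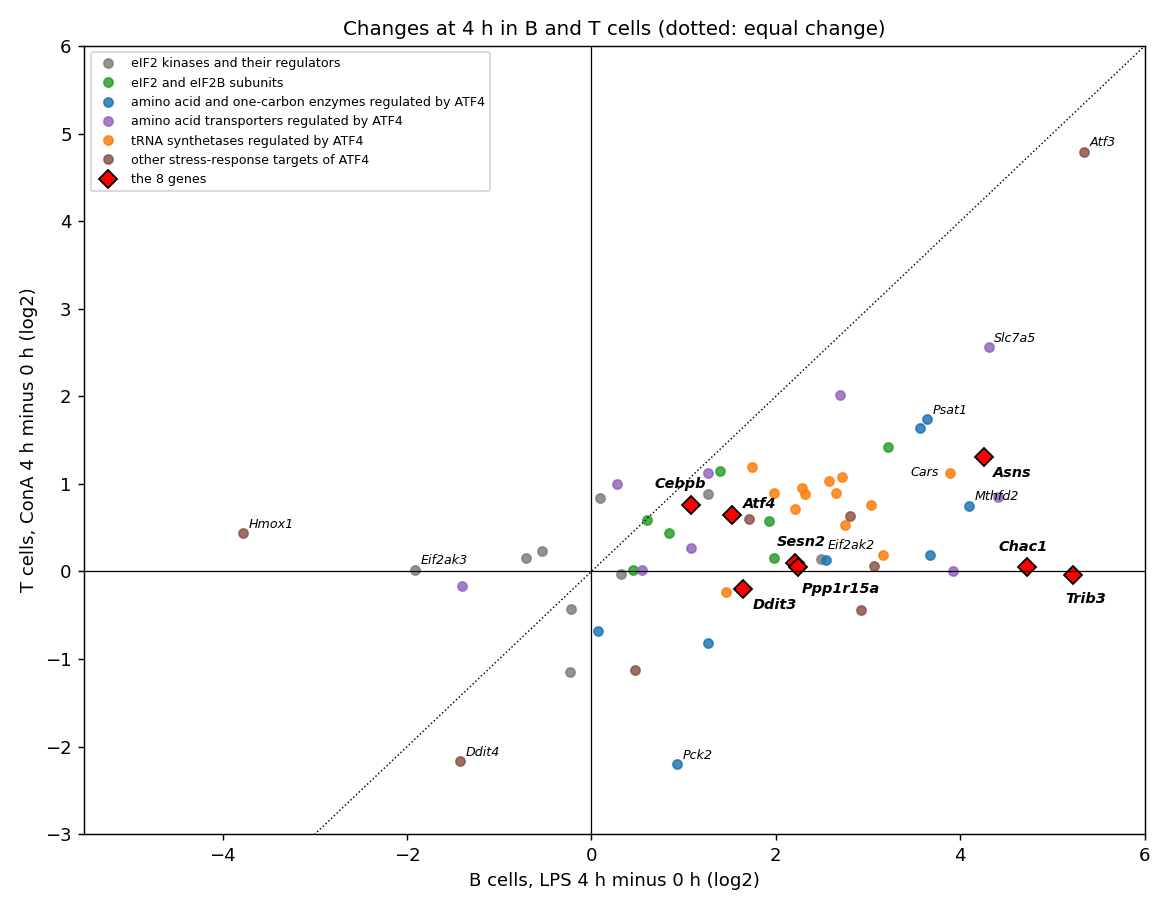
Log2 change with ConA at 4 h in T cells (vertical) against log2 change with LPS at 4 h in B cells (horizontal) for tested genes of 6 pathway lists (circles) and the 8 genes (diamonds); the dotted line marks equal change. The 8 genes all lie below the line, Trib3 and Chac1 far right at a T cell change near 0, while Atf3 lies close to it and Pck2 changed in opposite directions.

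Other stress targets of ATF4 were mixed. Of 14 on the array 8 were tested, Vegfa only through B LPS 4 h, and Nupr1, Stc2, Fgf21, Vldlr and Tnfrsf10b stayed near the floor. With LPS 6 were called higher and 2 lower (median 2.26), beside 37.6% and 42.3% of all tested genes. With ConA at 4 h 4 were higher and 3 lower (median 0.25), beside 33.4% and 32.5%. Atf3 is a stress-induced transcription factor gene of the same family. It rose by 5.34 ± 0.14 with LPS and by 4.79 ± 0.14 with ConA at 4 h, whereas Trib3 and Chac1 stayed near the floor in T cells. Both rises of Atf3 started near the floor, which limits how exactly their sizes are known. Eif4ebp1, a translation repressor gene, rose by 2.92 ± 0.14 with LPS and fell by 0.44 ± 0.14 with ConA at 4 h. Ddit4, another mTORC1 restrainer, fell in both, by 1.42 ± 0.10 and 2.17 ± 0.10. Hmox1, heme oxygenase, was lower by 3.77 ± 0.18 after LPS, along with the macrophage markers described below.

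Relatives of the 8 genes in their own families moved in both directions. Of 7 tested, 2 were called higher and 4 lower with LPS (median -0.29), beside 37.6% and 42.3% of all tested genes. The B cell response was the larger in 1 and the smaller in 5, beside 31.3% and 34.8%. Where Sesn2 rose with LPS, Sesn1 went from 11.9 ± 0.15 to 9.20 ± 0.14 (SD, n = 3) and so fell by 2.70 ± 0.14 (SE), and Sesn3 fell by 3.35 ± 0.11. Where Trib3 rose, Trib2 fell by 4.26 ± 0.24, and Trib1 (0.60 ± 0.30) was not called. In T cells at 4 h of ConA, Sesn1 fell by 1.82 ± 0.14, while Trib1 rose by 2.14 ± 0.30 and Sesn3 by 0.90 ± 0.11. Ppp1r15b, the constitutive relative of Ppp1r15a, rose by only 0.32 ± 0.06 with LPS, and Chac2 fell by 0.29 ± 0.09. Cebpa and Cebpd were near the floor in all groups, and Cebpg rose by 0.28 ± 0.10 with LPS.

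The XBP1 and ATF6 arms of the unfolded protein response, which act in parallel to PERK, were read in the same way. Of 12 genes, 6 were called higher and 4 lower with LPS (median 0.19), beside 37.6% and 42.3% of all tested genes. With ConA at 4 h 8 were higher and 2 lower (median 0.53), beside 33.4% and 32.5%. The B cell response was the larger in 2 and the smaller in 6, beside 31.3% and 34.8% of all tested genes. Xbp1 fell by 0.49 ± 0.07 with LPS and rose by 1.10 ± 0.07 with ConA at 4 h. Hspa5, the chaperone BiP, rose in both, by 1.15 ± 0.07 and 0.86 ± 0.07. Pdia4, a disulfide isomerase of the endoplasmic reticulum, fell by 3.90 ± 0.11 with LPS.

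Each sample is RNA of many cells, so fewer cells of a type and less RNA per cell cannot be told apart. Summed linear signals of marker lists checked the labels and the other cells present. Beside the counts of markers called, 37.6% of all tested genes were higher and 42.3% lower with LPS. With ConA at 4 h the shares were 33.4% and 32.5%. Of the B cell list, the sum was 87710 to 91600 on resting B cell arrays and 22440 to 27040 after LPS. With LPS 7 of 7 fell. In T cells the sum was 250.6 to 452.2, with Cd79a and Pax5 near the floor. With ConA at 4 h 2 of the 7 rose, Cr2 by 3.23 ± 0.18 and Ms4a1 by 0.95 ± 0.29. Cd79b fell by 0.53 ± 0.09, the only 1 of the list to do so. The sum of the T cell list was 27550 to 41240 in T cells and 69.72 to 100.8 in B cells. Cd3d, Cd3g and Thy1 were near the floor in B cells. Of 7 macrophage and neutrophil markers tested, 6 fell with LPS and 0 rose, while Mpeg1 was not called (0.33 ± 0.23). The list summed to 6152 to 6616 at B 0 h and 3037 to 3543 at B LPS 4 h, with Itgam and Cd14 near the floor in both. The part of such cells in the rise of the 8 genes was not tested. These markers summed to 500.5 to 662.9 at T 0 h, 1599 to 2199 at T ConA 4 h, where 2 rose and 1 fell, and 149.1 to 180.2 at T ConA 14 h.

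Of 3 dendritic cell markers tested, 2 of them only through B LPS 4 h, Zbtb46 rose with LPS by 4.62 ± 0.13 and Flt3 by 2.29 ± 0.26, while Itgax fell by 3.74 ± 0.06 to near the floor and Siglech and Xcr1 were near it in all groups. The sum of this list was 132.4 to 153.8 at B 0 h, 807.6 to 1047 at B LPS 4 h and 48.23 to 59.85 in T cells, and its part in the rise of the 8 genes was not tested. Erythroid markers summed to 8785 to 9940 in B cells and 4817 to 6493 in T cells, 6 falling and 1 rising of 7 with LPS and 5 falling and 1 rising with ConA at 4 h. Of NK cell markers 4 were tested, 1 higher and 2 lower with LPS and 0 higher and 3 lower at 4 h of ConA. Ncr1 was near the floor in all groups and was not tested. The list summed to 37.79 to 156.2 in B cells and 2970 to 7743 in T cells. Plasma cell markers (2 tested, 2 lower with LPS and 1 at 4 h of ConA) summed to 2418 to 11360 in B cells and 2523 to 5117 in T cells. The 3 arrays of a group correlated at 0.995 to 0.999 over all probe sets. The 3′ minus 5′ signal of the dap spike-in, a control RNA added at a fixed amount, was 0.90 to 1.44 in B cells and 1.82 to 2.67 in T cells but 4.59 on T 0 h replicate 2 and 5.94 on T ConA 4 h replicate 1. Without both arrays the Cebpb call at 14 h of ConA was lost (0.20, limma adjusted p = 0.129) and the difference of Ddit3 from 4 h to 14 h was called (0.33, limma adjusted p = 0.00664).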

How the data were processed

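RNA (100 ng per sample) was labelled with biotin and hybridised to Affymetrix mouse arrays, per the labels' protocols. The deposited values are log2 signals that the authors made with GCRMA, which corrects background and sets the arrays to a common distribution, per the submitters' processing notes; the sources used here do not give its version. Such values show changes relative to the rest of the transcripts and not in RNA per cell. The array medians were 2.42 to 2.57 and the highest value 15.9. The number of arrays limits the precision.

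Of 45101 probe sets (64 of them controls), 34958 had 1 symbol in the platform annotation, 932 several and 9211 were not listed. Identifiers of 34754 matched RefSeq, changing 0 symbols. A model of 5 group means over 15 arrays was fitted in limma 3.58.1 (R 4.3.3) with 10 residual degrees of freedom, and was checked on simulated data. The rule for named genes covered all 8 members, the 3 nearest profiles of each, and up to 4 called genes of the largest change per list and comparison. Other list genes, such as those that moved against their list or have a known role beside a member, were chosen with their values in view. The 8 genes and all gene lists were chosen with earlier results of these data known.

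The main fit did not use the replicate numbers to pair the samples. Same-numbered arrays' deviations from their group means correlated at -0.46 to 0.24, above 0.1 in 3 of 30 pairs. Such correlations cannot exclude that same-numbered arrays share a source. Alternatives were other probe set rules, filters, scalings, variance models and covariates, and each array left out. The choice of probe sets not ending in _x_at was added after seeing the data.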

Additional observations from a re-analysis of the deposited data

Results flagged for a closer look

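For 7 of the 8 genes the response at 4 h differed between the cell types by a test of the difference itself (limma, adjusted over 9045 genes), with all larger in B cells given LPS than in T cells given ConA. The B minus T difference, on the log2 scale, was 0.88 for Atf4, 2.95 for Asns, 5.27 for Trib3, 1.85 for Ddit3, 4.68 for Chac1, 2.11 for Sesn2 and 2.19 for Ppp1r15a. The T cell changes of Trib3, Ddit3, Chac1, Sesn2 and Ppp1r15a were not called, and those of Trib3 and Chac1 lie between values at or near the floor. Trib3, Chac1 and Sesn2 were tested only through B LPS 4 h, so their larger B cell response is in part a condition of testing. Of all tested genes 31.3% had a larger and 34.8% a smaller B cell response. Stimulus and cell type cannot be told apart in these differences.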

How the results depend on the processing

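Under 27 alternatives the number of the 8 genes called stayed at 7 to 8 for LPS in B cells, 3 to 4 for ConA at 4 h, 2 to 4 at 14 h, 2 to 4 between 4 h and 14 h, 2 to 5 between the resting cells and 6 to 8 for the difference of responses. Leaving out 1 array at a time gave 8 to 8, 3 to 4, 2 to 3, 3 to 4, 3 to 5 and 7 to 8. The count between resting cells, 4, became 2 with the mean of all probe sets of a gene and 2 with only the groups compared in the fit. Of 48 changes of single genes, 1314 values under alternatives kept their side of the threshold in 1263, lost the call in 33, gained it in 17 and turned the direction of a called change in 1: Ddit3 between resting B and T cells, 0.29 on the probe set 1443897_at. The cause was not tested. Changes that were not called could change sign, such as Atf4 between resting cells (-0.20 to 0.10) and Ddit3 from 0 h to 14 h of ConA (-0.14 to 0.13). With the replicate number as a block, no count moved by more than 1 gene (8, 3, 2, 3, 4 and 7 called), and Cebpb at 14 h of ConA lost its call (0.24, limma adjusted p = 0.0574); 2 of 15 arrays correlated best with their own number. Trib3 between resting cells lost its call on probe sets not ending in _x_at (-0.04, limma adjusted p = 0.686). Values at the floor limit folds of Chac1 to bounds, and those of Trib3 start from values near the floor. The LPS fold of Sesn2 was 4.62 on its brighter probe set and 10.8 on the dimmer one.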
